A study of Mus musculus with 4 samples.

Results

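Mitochondrial ribosomal protein genes were examined in RNA from mouse brown adipose tissue, a fat depot that makes heat. The members were the protein-coding genes whose symbols begin with Mrpl or Mrps and a number, with pseudogenes left out. This gave 77 of the 17259 genes in the table, 48 named for the large subunit (Mrpl) and 29 named for the small subunit (Mrps). Tissue of wild-type mice was separated into isolated mitochondria (2 libraries) and the tissue left after the mitochondria had been taken out (2 libraries). The latter is called the non-mitochondrial fraction here. No other treatment of the mice was stated. By the study's methods, written for hearts, isolated mitochondria were treated with digitonin and RNase A before RNA isolation. Such a step was not stated for the other fraction, and its part in the values below was not tested. The titles of the non-mitochondrial libraries read BAT-total, whereas their treatment label speaks of tissue minus the organelle. Grouping rested on that label, but a legend of the study describes the RNA compared with mitochondria as taken from lysates of whole brown fat. If so, the comparisons below set mitochondria against the whole tissue rather than against what the isolation left behind. Only 46.4% and 38.1% of the normalised totals of these libraries fell on nuclear genes without a match to mitochondrial transcripts. The name non-mitochondrial thus follows the label and does not mean that mitochondrial RNA was absent. Whether the replicates came from separate animals, and the age and sex of the mice, were not given in the sources used here, so the p-values measure only the spread between these libraries.

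Mitochondria hold their own ribosomes, which translate the few membrane proteins of the respiratory chain that the mitochondrial genome encodes. The rRNAs of these ribosomes are made inside the organelle, but all of their proteins are encoded in the nucleus, translated in the cytosol and imported. Many of the proteins have counterparts in bacterial ribosomes, and others occur only in mitochondria. Brown fat is rich in mitochondria.

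Some promoter motifs were more frequent among the members than among all genes, and none was present in most of them. These shares were not tested. A RefSeq promoter window, from 250 bases before to 50 bases after the annotated start (build GRCm38.p6), was at hand for 68 members and for 10264 of the protein-coding genes listed in the table. Motifs were searched as exact letters on both strands, with N for any base. The ETS core CCGGAAG, bound by GABP and other ETS factors, occurred in 25 of the 68 member windows (36.8%), against 19.3% of all windows. The letters GCGCANGCG of the NRF1 motif, named for nuclear respiratory factor 1, occurred in 16 (23.5%), against 14.9%. The YY1 motif AAGATGGCG occurred in 8 (11.8%), against 3.43%. At least 1 of these 3 motifs, which were searched independently and may share bases, was present in 41 member windows (60.3%), compared with 32.8% of all windows. The SP1 motif GGGGCGGG was found in 29.4% of member windows and 34.8% of all, CCAAT in 38.2% and 42.7%, the cyclic AMP element TGACGTCA in 2.94% and 3.42%, and TATAAA in 7.35% and 9.30%. The ERR motif TCAAGGTCA was in 0 of the member windows and 0.312% of all. These matches describe letters in a window and not bound sites. The 120 bases before the start are shown for 5 members that recur below, because they show the ETS core and NRF1 letters (capitals, on either strand) close to the start. Of the bases shown, 24 in Mrpl12, 5 in Mrpl43 and 18 in Mrps18a lie in exons of the GENCODE M21 annotation, and 0 in Mrpl34 and Mrpl45.
Mrpl12, chr11:120484517-120484636, plus strand: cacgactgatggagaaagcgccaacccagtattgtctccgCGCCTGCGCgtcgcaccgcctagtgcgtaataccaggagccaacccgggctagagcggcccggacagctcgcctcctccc
Mrpl34, chr8:71464806-71464925, plus strand: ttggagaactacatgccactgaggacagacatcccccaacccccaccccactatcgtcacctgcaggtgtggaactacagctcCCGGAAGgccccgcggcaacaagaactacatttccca
Mrpl45, chr11:97315596-97315715, plus strand: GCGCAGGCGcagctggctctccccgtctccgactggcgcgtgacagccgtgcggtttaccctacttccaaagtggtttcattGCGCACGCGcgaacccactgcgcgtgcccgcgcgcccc
Mrpl43, chr19:45006443-45006562, minus strand: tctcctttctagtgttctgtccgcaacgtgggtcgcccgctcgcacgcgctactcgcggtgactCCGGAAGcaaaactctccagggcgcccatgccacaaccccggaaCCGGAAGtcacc
Mrps18a, chr17:46110884-46111003, plus strand: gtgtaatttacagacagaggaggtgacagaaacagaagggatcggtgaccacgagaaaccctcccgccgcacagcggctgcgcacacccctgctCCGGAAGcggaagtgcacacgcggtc
Mrpl43 held the ETS core at 2 places, beginning 56 and 12 bases before the start. In Mrpl45 the NRF1 letters began 120 and 38 bases before the start, and in Mrpl12 they were found on the other strand at 80 bases. Members with and without a motif had similar levels in the non-mitochondrial fraction. The median normalised count per kb of merged exons was 12.4 with and 12.8 without the ETS core, 12.6 and 12.6 for NRF1, and 12.6 and 12.7 for YY1.

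A protein-coding gene on the opposite strand started head to head, at most 1000 bp upstream or 500 bp into the gene, for 26 of the 77 members (33.8%). The same held for 13.8% of the 12968 protein-coding genes checked, a difference that was not tested. Mrps11 and Mrpl46, encoding a small and a large subunit protein, form such a pair with each other on chromosome 7, with a gap of -412 bp between their starts (a negative gap is an overlap). Mrps12, the counterpart of the bacterial decoding-centre protein S12, starts 172 bp from Sars2, the mitochondrial seryl-tRNA synthetase gene. Mrpl36 has a gap of -29 bp to Ndufs6, which encodes a subunit of respiratory complex I. The median level was 14.6 normalised counts per kb in the 26 head-to-head members and 11.7 in the other 51.

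Some facts of the libraries bear on every value below. Mitochondria replicates 1 and 2 held 26288871 and 24910434 reads assigned to genes, of which only 59288 and 67370 (0.226% and 0.270%) fell on nuclear genes without a match to mitochondrial transcripts. The corresponding shares in the non-mitochondrial libraries were 46.4% and 38.1% of normalised totals of 1590096 and 1905303. One read was worth 8.32 and 6.90 normalised units in mitochondria replicates 1 and 2, whereas the reads behind the other 2 libraries are unknown. The tissue label was checked with Ucp1, which encodes the uncoupling protein of brown fat. It had 155 and 515 reads in mitochondria and normalised counts of 4819 and 4185 in the non-mitochondrial libraries, where it stood highest per kb of the nuclear protein-coding genes. All 8 brown adipocyte markers, which also included Cidea, Prdm16 and Dio2, were above 0 in at least 3 libraries.

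Mitochondria replicate 1 stood apart from replicate 2. The 5 liver markers took 1.84% of its nuclear reads, against 0.131% in replicate 2 and 0.0205% and 6.89e-04% in the non-mitochondrial libraries. Brown adipocyte markers took 0.526%, 1.52%, 1.63% and 1.49% in the same order. The 5 skeletal muscle markers took 0.513%, 0.166%, 0.0331% and 0.0696%. The 4 blood markers ranged from 0.0393 to 0.135% over the libraries. Other markers differed by fraction without overlap. The 4 endothelial markers took 0.0202% and 0.00148% in mitochondria against 0.109% and 0.112% in the other fraction, and the 4 macrophage markers 0.0371% and 0.0297% against 0.00705% and 0.00800%. The part of these transcripts in the results on ribosomal proteins was not tested, and values with and without replicate 1 are given where they differ.

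In the non-mitochondrial fraction the mitoribosomal protein genes were expressed above the typical nuclear gene and below the cytosolic ribosomal protein genes. Their median level was 12.6 normalised counts per kb of merged exons (13.8 in replicate 1 and 11.6 in replicate 2, n = 77 genes). The median of all 12954 nuclear protein-coding genes listed was 3.63, and that of the 79 cytosolic ribosomal protein genes 37.0. These are descriptions without a test, since genes are not replicates. The plot of levels by library shows that the genes of both subunits spread over more than an order of magnitude, from 2.88 to 94.6.

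**Figure D1:**
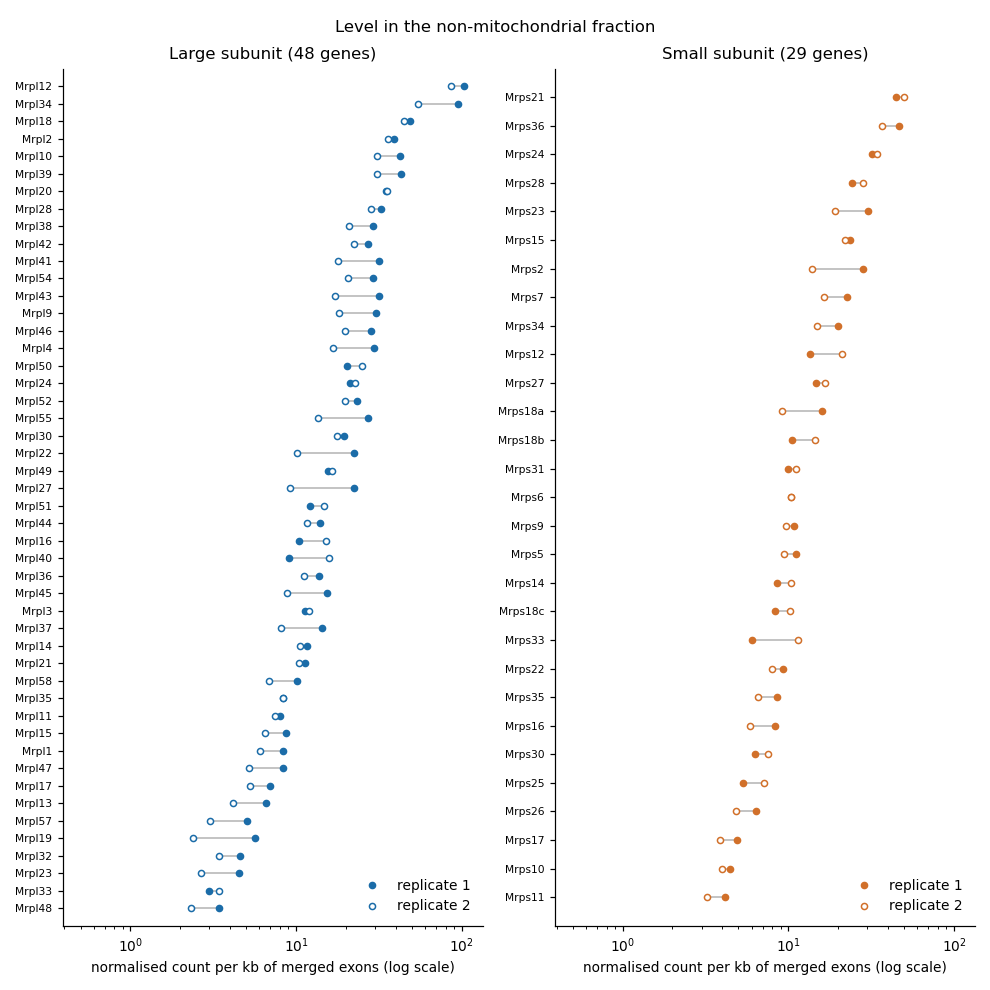
Level of each mitoribosomal protein gene in the non-mitochondrial fraction, in normalised counts per kb of merged exons (horizontal log axis), for large subunit genes (left) and small subunit genes (right) ordered by their mean. Filled and open points are replicates 1 and 2, joined by a grey line; Mrpl12 lies highest at 94.6, and the medians are 14.6 for the large and 10.4 for the small subunit.

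Among large subunit genes, Mrpl12 on chromosome 11 (chr11:120484613-120489065, GRCm38, plus strand) was the most abundant per kb. It encodes the counterpart of bacterial L7/L12, the stalk protein that contacts translation factors. Its normalised counts were 158 and 132 in non-mitochondrial replicates 1 and 2, and 9 and 11 reads were found in mitochondria replicates 1 and 2. Mrpl34, whose short product is a counterpart of bacterial L34, followed at 75.0 per kb, with normalised counts of 58 and 33 and with 0 and 2 reads. Mrpl18 (46.9 per kb) had counts of 68 and 63 and reads of 2 and 15. Mrpl2, whose bacterial counterpart lies near the peptidyl transferase centre, reached 37.6 per kb (46 and 42) with 4 and 0 reads. Mrpl10, the base of the same stalk as Mrpl12, and Mrpl39, a protein specific to mitochondria, shared the next level of 36.9 per kb. Mrpl10 had counts of 73 and 53 and reads of 4 and 2, and Mrpl39 counts of 109 and 78 and reads of 3 and 13. Per kb, Mrpl12 was the highest member in each non-mitochondrial library, although Mrpl34 in replicate 1 exceeded Mrpl12 in replicate 2. The levels of Mrpl2, Mrpl10 and Mrpl39 overlapped between replicates.

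The highest small subunit gene by mean level per kb was Mrps21 (47.4 per kb), although Mrps36 was above it in replicate 1 (46.3 and 44.7 per kb). The Mrps21 normalised counts were 33 and 37 and its mitochondria reads 0 and 1. The mean of Mrps36 was 41.6 per kb, and it had counts of 59 and 47 and reads of 0 and 3. Its product was named as a ribosomal protein and is now known as a subunit of the alpha-ketoglutarate dehydrogenase complex. Mrps24 (33.1 per kb) had counts of 47 and 50 and reads of 0 and 8. Mrps28 (26.2 per kb) had 19 and 22 with 0 and 0 reads, and Mrps23 (24.7 per kb) had 47 and 30 with 1 and 0 reads. Together these 5 genes had 1 read in mitochondria replicate 1. Mrps36 has 9 pseudogene copies (at least 200 bp at 90% identity or more) in the annotation and Mrps21 has 3, so their counts are uncertain where reads were shared between copies.

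At the lower end, Mrpl48, Mrpl33 and Mrpl23 had 2.88, 3.21 and 3.58 normalised counts per kb, and Mrps11, Mrps10 and Mrps17 had 3.68, 4.21 and 4.39. Mrps11 was the lowest member before division by length, with counts of 9 and 7. Its reads in mitochondria were 2 and 0. The low place of Mrpl33, the counterpart of bacterial L33, came with 7326 bp of merged exons. Per kb of its longest coding transcript (478 bp) it stood at 49.2 and ranked 10 of the 77 instead of 76. Mrpl42 likewise went from 24.9 to 137 per kb and ranked first by that measure, ahead of Mrpl12 at 110. Levels by both lengths were correlated (Spearman's rho 0.75, Pearson's r 0.73 over 77 genes that share the same libraries).

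Large subunit genes were not separated from small subunit genes. The median level per kb of merged exons was 14.6 (interquartile range 8.23 to 24.5) for the large and 10.4 (7.59 to 19.5) for the small subunit. Per kb of the longest coding transcript the medians were 23.2 and 20.6. Before division by length they were 34.5 and 35.0 normalised counts, which reverses their order. Of the small subunit names, Mrps18a and Mrps30 encode proteins that sit in the large subunit, and moving both gave a large subunit median of 13.1. The 48 members with a bacterial counterpart had a median of 12.5 per kb, and the 29 without had 13.5.

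Both non-mitochondrial libraries ordered the members alike, with Pearson's r 0.89 and Spearman's rho 0.86 over the 77 genes. Replicate 1 was the higher one for 54 of 77 members (70.1%), namely 38 of 48 large and 16 of 29 small subunit genes. The share was 73.4% for cytosolic ribosomal protein genes. Of the 7860 protein-coding genes whose levels lay in the range of the members, 8.0 to 145.0 normalised counts, replicate 1 was the higher one for 3931. Large subunit genes summed to 2208 and 1755 normalised counts and small subunit genes to 1092 and 973 in replicates 1 and 2. The replicates thus differed by 1.24-fold and 1.10-fold in the share of nuclear values taken by the large and small subunit.

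In the mitochondria libraries each member was represented by few reads. At least 1 read was present in both libraries for 46 of the 77 members (59.7%), in 1 library for 26 and in neither for 5 (6.49%). Of the 26 genes, 8 were detected in replicate 1 and 18 in replicate 2. The median was 2 reads per member in replicate 1 and 3 in replicate 2, and the largest counts were 10 and 16. With more than 3 reads as the criterion, 10 members were detected in both libraries and 32 in neither. In comparison, 72 of the 79 cytosolic ribosomal protein genes (91.1%) had reads in both libraries and 5 in neither. The 7860 protein-coding genes in the same range of levels had reads in both libraries in 49.6% and in neither in 14.5% of cases, and all 17259 genes in 32.1% and 37.6%. A count of 0 allows up to 3 reads as a one-sided limit, which is 22.8 normalised units on average, and this limit covers counting error only.

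**Figure D2:**
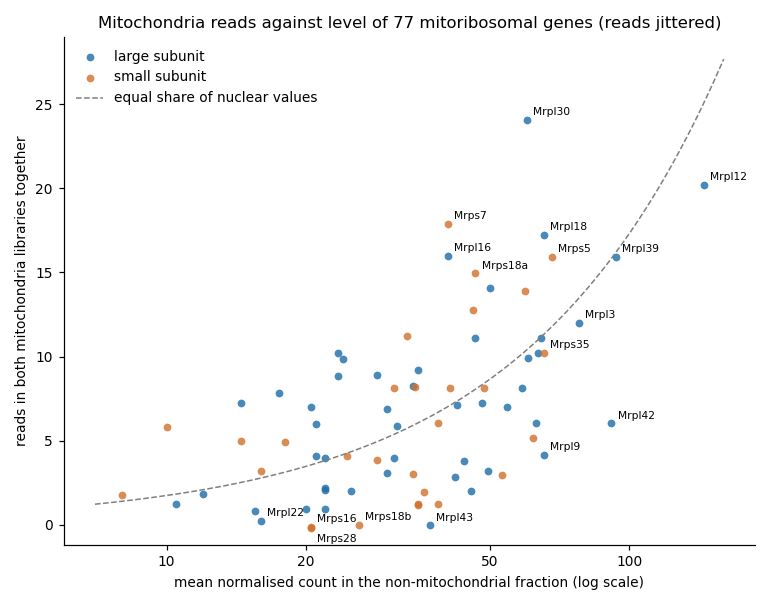
Reads summed over both mitochondria libraries (vertical axis, jittered by up to 0.25 reads) against the mean normalised count in the non-mitochondrial fraction (horizontal log axis) for the 77 members, coloured by subunit. The dashed curve marks an equal share of the nuclear part of both fractions; Mrpl30 with 24 reads lies above it and Mrpl42 with 6 reads below, and the 5 members at 0 reads all have a mean under 40.

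Detection followed the level in the other fraction. Of the 32 members with a mean of at least 40 normalised counts, 25 had reads in both mitochondria libraries and 0 had none in either. Of the 45 members below that level, 21 were detected in both and 5 in neither. The cut of 40 lies just above the highest mean of a member without reads (Mrpl43, 37.0), so the 0 above it follows from its place. Across the 77 genes, mitochondria reads and the non-mitochondrial mean had Pearson's r 0.58 and Spearman's rho 0.54. By subunit, 30 of 48 large and 16 of 29 small subunit genes were found in both libraries, with 2 and 3 in neither. Members with a bacterial counterpart were in both in 31 of 48 cases and those without in 15 of 29.

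The most reads belonged to Mrpl30, the counterpart of bacterial L30 on chromosome 1 (chr1:37890477-37898535, GRCm38, plus strand). It had 10 and 14 reads in mitochondria and normalised counts of 63 and 57 in the other fraction. At an equal share of nuclear values 10.4 reads would be found, so that its 24 reads were 2.31 times that number (exact Poisson interval 1.48 to 3.44, counting error only). Mrpl30 also has 5 pseudogene copies in the annotation. Its fitted log2 fold change of 0.57 (SE 0.42) did not pass the limma test (adjusted p = 0.459). Next among large subunit genes were Mrpl12 with 20 reads, Mrpl18 with 17, and Mrpl16 and Mrpl39 with 16 each. Of these only Mrpl30 and Mrpl12 had more than 3 reads in both libraries.

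Among small subunit names, Mrps7 had the most reads, with 3 and 15 in mitochondria and normalised counts of 47 and 34. Its product is the counterpart of bacterial S7, which organises the head of the small subunit. Mrps5 had 3 and 13 reads (74 and 62 in the other fraction) and Mrps9 had 5 and 9 (63 and 56). Mrps18a had 9 and 6 (59 and 34), and Mrps30 had 1 and 12 (42 and 50). The last 2 names are those whose proteins sit in the large subunit. The 3 paralogs of bacterial S18 differed in their reads. Mrps18a had 15 reads over both libraries, Mrps18c had 3 and 3 from counts of 9 and 11, and Mrps18b had 0 and 0 from counts of 22 and 30. At an equal share, 8.03, 1.73 and 4.51 reads would be found for Mrps18a, Mrps18c and Mrps18b.

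Members with no read in either mitochondria library were Mrpl43 and Mrpl22 of the large subunit and Mrps16, Mrps18b and Mrps28 of the small subunit. Mrpl43, a protein specific to mitochondria, had normalised counts of 48 and 26 in the other fraction, and its transcript was at least 1.62-fold lower in mitochondria, with 3 reads per library taken as the floor. Mrps18b, with counts of 22 and 30, lay on both sides of the average floor, and no fold is given for it. Mrps16 (24 and 17), Mrps28 (19 and 22) and Mrpl22 (22 and 10) had means under that floor in both fractions, again without a fold. Exons of Mrpl43 overlap those of Twnk, the mitochondrial helicase gene, over 507 bp, and those of Mrps18b overlap an annotated neighbour over 638 bp. By the study's methods, reads on several genes were left out of the counts, and the use of strand in counting was not given.

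The mitochondria replicates shared little of their order of members. Their reads had Pearson's r 0.17 and Spearman's rho 0.19 over the 77 genes. As shares of nuclear reads, the exact Poisson intervals of the replicates did not overlap for 5 members (6.49%), against 3.58% of the protein-coding genes in the same range of levels and 7.59% of cytosolic ribosomal protein genes. These intervals cover counting error only, and nothing particular to the members is read from them. Mrpl16 had 0 and 16 reads, Mrpl37 had 0 and 14, Mrpl4 had 0 and 10 and Mrpl18 had 2 and 15 in replicates 1 and 2. Mrpl58, a peptidyl-tRNA hydrolase that became part of the large subunit, went the other way with 9 and 0. Its counts in the other fraction were 34 and 23. The plot of both replicates shows that these genes fall near the axes, whereas Mrpl30 and Mrpl12 lie near the line of equal share. The share of nuclear reads was higher in replicate 2 for 44 of 77 members (57.1%), against 42.5% of the 7860 protein-coding genes in the same range of levels and 65.8% of cytosolic ribosomal protein genes.

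**Figure D3:**
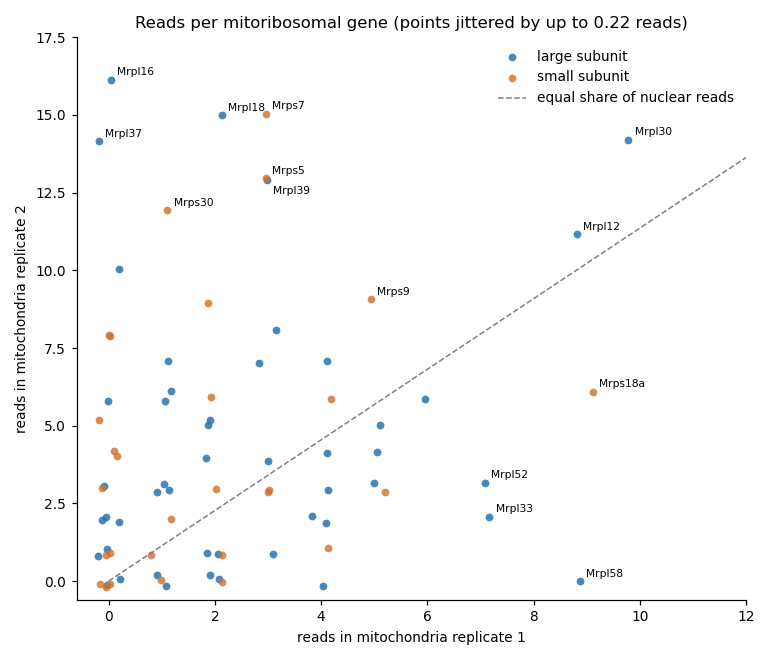
Reads of each member in mitochondria replicate 1 (horizontal axis) and replicate 2 (vertical axis), jittered by up to 0.22 reads and coloured by subunit. The dashed line marks equal shares of nuclear reads; most members have fewer than 10 reads in both libraries, and Mrpl16, Mrpl37 and Mrpl58 have reads in 1 library only.

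As a group, the members took a similar share of the nuclear part of both fractions. They summed to 179 and 342 reads in mitochondria replicates 1 and 2, which were 0.302% (95% Wilson interval 0.261 to 0.349%) and 0.508% (0.457 to 0.564%) of nuclear reads. Their shares of nuclear values in the other fraction were 0.447% and 0.376%. Means were 0.405% ± 0.145 in mitochondria and 0.412% ± 0.0502 in the other fraction (SD, n = 2 each), with the mitochondria libraries on both sides of the others. The difference of -0.00691 percentage points had an exact two-sided permutation p of 1.00, where 0.333 is the smallest p that 2 against 2 libraries allow. Without mitochondria replicate 1 the difference was 0.0960 percentage points, and without replicate 2 it was -0.110. Without non-mitochondrial replicate 1 it was 0.0286. As shares of all genes, mitochondrial transcripts included, the difference was -0.174 percentage points (exact permutation p = 0.333). Fewer cells of a type and less RNA per cell cannot be told apart in these bulk libraries.

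The difference between the mitochondria replicates was seen in other nuclear groups too. The share of nuclear reads was 1.68 times as high in replicate 2 for the members, 1.50 times for the large and 2.11 times for the small subunit. The ratio was likewise 1.50 for cytosolic ribosomal proteins (0.933% and 1.40%) and 2.90 times for brown adipocyte markers. For liver markers the ratio was 0.0709, in the other direction. The part of the liver transcripts in the lower share of replicate 1 was not tested.

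**Figure D4:**
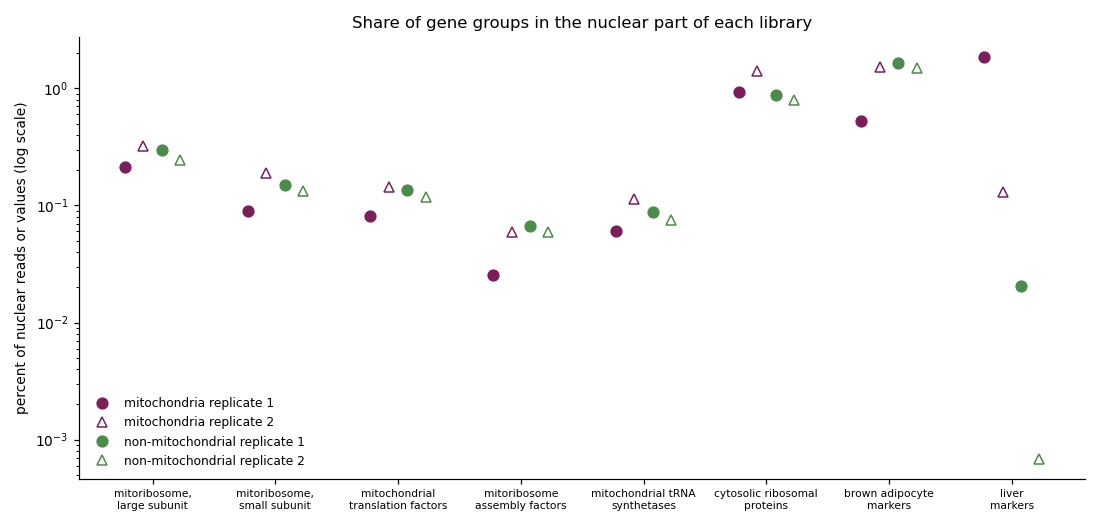
Percent of nuclear reads (mitochondria, purple) or nuclear normalised values (non-mitochondrial fraction, green) taken by 8 gene groups, on a log axis, with replicate 1 as circles and replicate 2 as triangles. For both mitoribosomal subunits the non-mitochondrial libraries lie between the mitochondria replicates, and liver markers are highest in mitochondria replicate 1 at 1.84%.

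The balance of the subunits did not differ beyond the spread of the replicates. Small subunit genes made up 53 of 179 member reads in mitochondria replicate 1 (29.6%, Wilson interval 23.4 to 36.7%) and 127 of 342 in replicate 2 (37.1%, 32.2 to 42.4%). In the non-mitochondrial fraction they made up 33.1% and 35.7% of member values. Means were 33.4% ± 5.32 in mitochondria and 34.4% ± 1.82 in the other fraction (SD, n = 2 each). They differed by -1.01 percentage points (exact two-sided permutation p = 1.00). The sign was not stable, as the difference was 2.76 without mitochondria replicate 1, 0.281 without non-mitochondrial replicate 2 and 6.30 by the median level per kb in place of the sum.

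Gene by gene, 73 members averaged 10 normalised counts or more across the libraries and entered the test of 8215 genes. The other 4 were Mrpl14, Mrpl22, Mrpl27 and Mrps11. By limma with Benjamini-Hochberg adjustment, 4 members (5.48% of those tested) passed an adjusted p under 0.05 as lower in mitochondria, and so did 4.41% of all genes tested. The 4 were Mrps28 and Mrps18b (adjusted p = 0.0249 each) and Mrpl43 and Mrps16 (adjusted p = 0.0277 each), all of which had 0 reads in both mitochondria libraries. Such genes passed the filter only through the non-mitochondrial libraries, and their fitted values depend on the pseudocount. Mrps28 and Mrps16 in addition lay under the floor in both fractions, so their calls are not read as a difference in level. Of the 362 genes called lower in the whole table, 359 had 0 reads there as well. At an unadjusted p under 0.05 limma put 11 members lower, and 14.9% of all genes. No member was higher by limma, at the adjusted or the unadjusted threshold (0 of 73). Of all genes tested, 0.803% were called higher after adjustment and 3.20% had an unadjusted p under 0.05.

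A count test gave no call among the members. With edgeR's quasi-likelihood test on the recovered reads, 0 of 73 members were lower and 0 higher at an adjusted p under 0.05. The shares of all genes called by edgeR were 4.02% lower and 1.64% higher. At an unadjusted p under 0.05 edgeR put 15 members lower and 0 higher, with 25.7% of all genes lower and 4.03% higher. For Mrpl43, Mrps18b, Mrps28 and Mrps16 the edgeR adjusted p-values were 0.0673, 0.0839, 0.109 and 0.112. The calls of these 4 genes were thus not shared by both tests. With no filter on low values limma called 6 of 77 members lower, against 20.8% of all 17259 genes.

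The fold changes of the members centred near those of all genes. The median log2 fold change (mitochondria over non-mitochondrial, on the log2 scale of normalised count plus 1) was -1.13 for all members tested, -1.13 for the large and -1.42 for the small subunit, against -1.23 for all genes tested. Fitted values were below 0 for 62 of 73 members (84.9%), against 81.2% of all genes tested, and by edgeR for 55 (75.3%), against 73.8%. By edgeR the medians were -0.69, -0.69 and -0.70, against -0.80. Without mitochondria replicate 1 the limma medians rose to -0.44 for all members and -0.15 for the small subunit, and the median of all genes to -0.92. A gene with 0 reads in 1 library contributes a large negative value and a wide error on this scale, as the plot of fold changes shows.

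**Figure D5:**
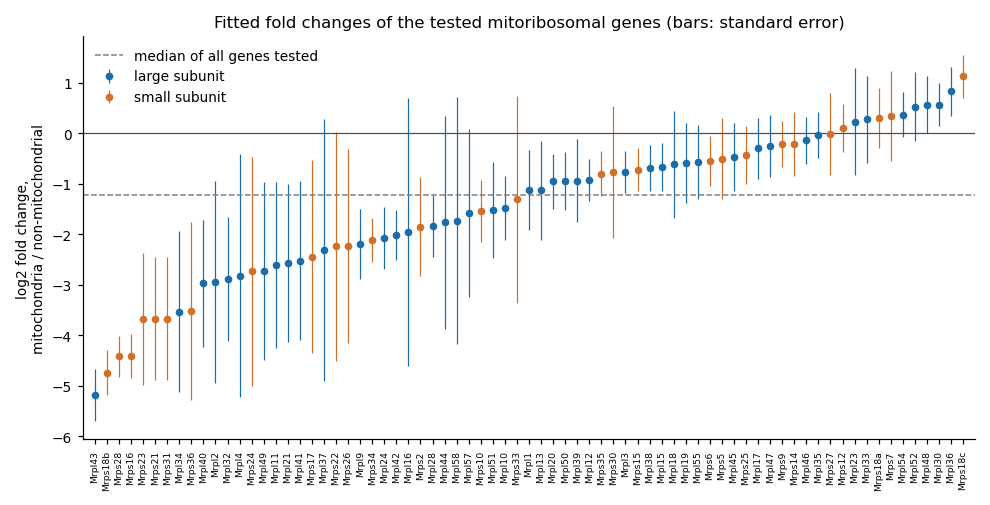
Fitted limma log2 fold change (vertical axis) of the 73 members tested, ordered from lowest to highest and coloured by subunit, with standard errors as bars. The dashed line is the median of all genes tested at -1.23; the 4 members at the left had 0 reads in mitochondria, and the highest is Mrps18c at 1.13.

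Among the members with reads in both mitochondria libraries the highest fold changes were those of Mrps18c, Mrpl36 and Mrpl30, with Mrpl48 (3 and 7 reads) equal to Mrpl30 at 0.57 after rounding. Mrps18c stood at 1.13 (SE 0.43, limma adjusted p = 0.295). Mrpl36, the counterpart of the small bacterial protein L36, had 4 and 3 reads and normalised counts of 16 and 13, with a fitted value of 0.83 (SE 0.48, limma adjusted p = 0.392). The lowest were Mrpl9, Mrps34 and Mrpl24. Mrpl9 had 1 and 3 reads against counts of 82 and 49 (-2.19), Mrps34 had 1 and 1 against 41 and 31 (-2.11), and Mrpl24 had 2 and 1 against 48 and 51 (-2.07). None of these 6 passed either test.

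Mrpl45 and Mrps12 were named for their known roles and not for their values. Mrpl45, which lies at the exit tunnel and ties the ribosome to the inner membrane, had 4 and 2 reads in mitochondria and normalised counts of 40 and 23. At an equal share 5.44 reads would be found. Mrps12 had 2 and 3 reads and counts of 14 and 22, with 3.12 reads at an equal share. For both, the Poisson intervals of the ratio (0.405 to 2.40 and 0.520 to 3.74) included an equal share.

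Other genes of mitochondrial translation were read against the same background, 4.41% of all genes called lower by limma. Of 5 further proteins of the mitoribosome with other symbols, limma called 1 lower (adjusted p = 0.0249) and edgeR called 0. The called gene was Gadd45gip1, a large subunit protein with 0 and 0 reads and counts of 32 and 23, which also passed the filter only through the non-mitochondrial libraries. No fold is given for it. Aurkaip1, a small subunit protein, had 2 and 27 reads and Dap3, a GTP-binding protein of the small subunit, had 5 and 6. Of the translation factors 15 were present in the table, 12 entered the test and 0 were called by limma or edgeR. Tufm, the elongation factor that brings aminoacyl-tRNA, had 13 and 24 reads, Mtif2, the initiation factor, had 14 and 7 reads, and Lrpprc, which binds and stabilises mitochondrial mRNAs, had 4 and 21. None of the 11 tested assembly factors (24 in the table) and none of the 16 tested mitochondrial tRNA synthetases and amidotransferase subunits (20 in the table) was called by either test. Reads in both mitochondria libraries were present for 11 of the 15 translation factors, 3 of the 24 assembly factors and 8 of the 20 synthetases. The median limma log2 fold changes of the tested genes were -0.84, -0.75, -2.04 and -1.34 for the further mitoribosomal proteins, factors, assembly factors and synthetases. By edgeR they were -0.54, -0.44, -0.99 and -0.44, so that the synthetases lay below the median of all genes by limma and above it by edgeR.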

How the data were processed

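RNA from 2 libraries of isolated mitochondria and 2 of the non-mitochondrial fraction was compared. Libraries were made with a stranded total RNA kit for low input, and the fragmentation time of mitochondrial samples had been adjusted. By the study's methods, mitochondria had also been treated with digitonin and RNase A. Preparation and fraction therefore cannot be told apart. According to the submitters' processing notes, reads were trimmed with Trimmomatic 0.39, aligned to mm10 with STAR 2.7.10a, counted with featureCounts 2.0.2 and normalised with DESeq2 1.30.1. The study's methods name other versions of STAR, featureCounts and DESeq2. The authors deposited 1 table in which each value is a signal, namely a gene count divided by the library's size factor and rounded (normalised count). Whole reads were recovered for 100.0% of values in both mitochondria libraries (within 0.51 units of a whole multiple).

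Genes with a mean of at least 10 were tested on log2(normalised count + 1) with limma 3.58.1 in R 4.3.3. The threshold was an adjusted p under 0.05, over all genes tested. As an alternative, edgeR 4.0.16 was run on recovered reads, and non-mitochondrial values entered it as if they were reads. The tests were tried on simulated data, in which limma also called some unchanged genes at a low dispersion and edgeR called none. All simulated dispersions were below the 0.083 that edgeR estimated in these data. The differences between the mitochondria replicates were not simulated. The error rates and power of the tests in these data are therefore not known from the simulation. Nuclear shares leave out 17 genes matching mitochondrial transcripts by BLAST 2.17.0 (90% identity over 50 bp). Lengths and overlaps came from GENCODE M21, where all 77 members had the coordinates of the table. Other symbols beginning with Mrpl or Mrps, 5 pseudogenes, were left out. The members, lists and tests were chosen with earlier results of these data known, and motifs and gene neighbourhoods were added after the data had been seen. The NRF1 letters were shortened by 1 base after a longer form had been counted. Genes were named by a fixed rule (5 highest and 3 lowest levels and 5 highest mitochondria reads per subunit, 3 highest and 3 lowest fold changes, calls, members at 0, the Mrps18 paralogs and 5 genes of known role). Genes outside it, such as those whose replicates or length measures disagree, were chosen after their values had been seen. Alternatives covered pseudocount, filter, scaling, length, subunit assignment, the replicate block and leaving out each library.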

Additional observations from a re-analysis of the deposited data

How the results depend on the processing

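The 4 members called lower became 0 with a pseudocount of 10, under edgeR and with the replicate block, and 73 with CPM over all genes, where 96.9% of all genes were called. A mean of at least 50 left 13 members, none of the 4 among them, with 0 calls. The block was not supported by the labels, and replicate differences of the fractions correlated by 0.112 over all genes in the only pair available. Leaving out 1 library gave 0 to 36 lower (20 without mitochondria replicate 1 and 36 without replicate 2, where 41.1% and 47.0% of all genes were called lower) and 0 to 3 higher calls (3 without mitochondria replicate 2, with 7.57% of all genes). There the lone library is assumed to vary like the others. The median of all members became -7.15 with CPM over all genes, as did that of all genes tested, and -0.56 with CPM over nuclear genes (-0.66 for all genes). It ranged from -1.36 to -0.44 when 1 library was left out. The large subunit median was -0.73 with a pseudocount of 10 and with a mean of at least 50, -7.16 and -0.54 with the CPM scalings, -0.69 by edgeR and -1.36 to -0.49 without 1 library. The small subunit median was -0.21 with a mean of at least 50 (5 genes), -7.06 with CPM over all genes and -1.71 to -0.15 without 1 library.

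With more than 3 reads required, 10 members were detected in both mitochondria libraries and 32 in neither, and a single mitochondria library left 13 to 23 members at 0. The small subunit share difference was 6.30 percentage points by median level per kb, -3.36 with Mrps18a and Mrps30 in the large subunit, -1.67 without the largest member of each subunit and -4.77 to 2.76 without 1 library (0.281 without non-mitochondrial replicate 2). The share of nuclear values differed by -0.110 to 0.0960 percentage points without 1 library (0.0286 without non-mitochondrial replicate 1) and by -0.174 with all genes as the denominator. The level of the large subunit was 34.5 without division by length, 23.2 by coding transcript, 13.1 with Mrps18a and Mrps30 added and 20.4 without overlapping or copied genes, with a range of 14.2 to 15.4 over single libraries. The small subunit gave 35.0, 20.6 and 12.6, with 10.4 to 10.5 over single libraries. The cause of these changes was not tested. The longer NRF1 motif occurred in 13 member windows (19.1%), against 11.2% of all. The mitochondria values rest on a median of 2 and 3 reads per member.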
